A study of Mus musculus with 6 samples.

Results

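7 of the mouse major urinary protein genes are described here: Mup3, Mup12, Mup15, Mup17, Mup19, Mup20 and Mup21. They were listed by name, with the fold changes of this same comparison already known, so their values are a description: no p-value is given for them, and where a call by the fit over all genes is listed, it supports nothing about them. The list makes up 7 of the 22 rows with a numbered Mup symbol, in a table of 20894 genes from mouse liver. Because these genes are close copies of each other and share sequencing reads, each gene is given on its own and all 22 rows are also given as a sum.

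The livers came from Irf3LSL-2D mice, which carry an IRF3-2D allele at Irf3 behind a stop cassette that Cre recombinase removes. IRF3-2D mice received AAV8-TBG-Cre, a virus that expresses Cre from TBG, a hepatocyte promoter, and Ctrl mice received AAV8-TBG-GFP. All mice carried the allele, all were given 3 g/kg ethanol by intraperitoneal injection, and all livers were taken 2 h later. Each group had 3 libraries, and the labels give neither sex nor age and do not say whether every library is from its own mouse, so the spread behind each p-value may be technical. There was no Cre group without the allele and no group without ethanol, so effects of Cre or of GFP cannot be told apart from those of the IRF3-2D allele.

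Major urinary proteins are small lipocalins, barrel-shaped carriers of hydrophobic molecules, that hepatocytes secrete and the kidney passes into urine, where they hold and release volatile pheromones. MUP20, also called darcin, is itself a male pheromone protein. In mouse liver, Mup transcription is known to depend on pulses of growth hormone, acting through its receptor GHR and the transcription factor STAT5B, and on thyroid hormone and glucocorticoid.

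The 22 genes lie in 1 cluster on chromosome 4, at chr4:59956804-62150863 in GRCm38 (GENCODE M21), a stretch of 2194060 bases. In map order, Mup12 (ENSMUSG00000094793) lies at chr4:60737383-60741326, Mup15 (ENSMUSG00000096674) at chr4:61435790-61439743 and Mup17 (ENSMUSG00000096688) at chr4:61591929-61595871. Mup19 (ENSMUSG00000078673) lies at chr4:61778324-61782269, at the end of a block of 16 near-identical genes that starts with Mup7 and is called the central block here. Mup20 (ENSMUSG00000078672) at chr4:62050234-62054158, Mup3 (ENSMUSG00000066154) at chr4:62083476-62087342 and Mup21 (ENSMUSG00000066153) at chr4:62147932-62150863 lie beyond it. All 7 are on the minus strand.

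The coding sequences separate the same way. Over aligned bases, Mup12, Mup15, Mup17 and Mup19 had median identities to the other Mup genes of 99.1%, 98.9%, 98.7% and 97.4%. Mup20 stood at 91.1%, Mup3 at 85.7% and Mup21 at 84.7%, and the closest relative of Mup3 was Mup21, at 96.3%. Promoter windows from RefSeq (GRCm38.p6) were held for 14 Mup genes, among them 5 of the 7. The 250 bases before the annotated start are shown for Mup17 and Mup19, whose levels differed most between the groups, and for Mup3 and Mup21, whose levels differed least among the 5, at chr4:61595833-61596082, chr4:61782225-61782474, chr4:62087318-62087567 and chr4:62150842-62151091, each read on the minus strand. Capitals mark matches to the motifs that were searched.
Mup17: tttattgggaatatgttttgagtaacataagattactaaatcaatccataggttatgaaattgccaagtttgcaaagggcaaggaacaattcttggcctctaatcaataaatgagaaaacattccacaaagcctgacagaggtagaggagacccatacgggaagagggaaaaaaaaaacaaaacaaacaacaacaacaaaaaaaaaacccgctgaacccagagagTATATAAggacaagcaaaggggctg
Mup19: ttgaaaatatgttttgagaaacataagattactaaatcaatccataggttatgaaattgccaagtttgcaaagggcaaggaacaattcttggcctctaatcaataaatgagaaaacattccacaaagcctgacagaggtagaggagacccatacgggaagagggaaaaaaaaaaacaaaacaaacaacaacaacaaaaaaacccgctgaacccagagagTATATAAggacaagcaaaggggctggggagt
Mup3: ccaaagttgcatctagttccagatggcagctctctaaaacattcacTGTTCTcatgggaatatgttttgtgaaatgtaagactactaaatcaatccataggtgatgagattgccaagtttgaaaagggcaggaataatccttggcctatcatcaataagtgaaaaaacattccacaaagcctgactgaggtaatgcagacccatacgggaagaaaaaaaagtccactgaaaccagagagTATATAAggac
Mup21: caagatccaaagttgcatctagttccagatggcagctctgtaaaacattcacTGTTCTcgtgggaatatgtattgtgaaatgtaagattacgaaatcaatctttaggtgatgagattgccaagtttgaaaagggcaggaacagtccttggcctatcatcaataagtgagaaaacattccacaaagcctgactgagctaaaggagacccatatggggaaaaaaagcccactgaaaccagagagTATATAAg

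The promoters of Mup15, Mup17 and Mup19 were 97.6% to 99.0% identical to each other, and 74.6% to 77.3% identical to those of Mup3 and Mup21. Other promoters of the central block were close to that of Mup17 too, at 98.32% for Mup2, 97.96% for Mup9 and 94.0% for Mup18. The log2 fold changes of these genes, IRF3-2D over Ctrl, were -3.42, -3.10 and -1.91. The likeness is thus not particular to Mup15, Mup17 and Mup19. A set of 5 motifs was searched on both strands of the windows of 300 bases, which run 50 bases past the start. TATATAA, a common core promoter element that was added to the search after the sequences had been read, was found in 13 of the 14 Mup windows and in all 5 shown or compared here, against 3.24% of 32851 mouse promoters. TGTTCT, a partial site of the glucocorticoid receptor, was found in 2 of 14, Mup3 and Mup21, against 19.0% of all promoters. The STAT5 type TTCNNNGAA, the interferon response type GAAANNGAAA and the C/EBP type TTGCNNAA were found in 0 of 14, against 8.30%, 3.44% and 10.8% of all promoters. A match here is a run of letters, not a site shown to be bound.

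Libraries held 12054096 to 13606973 counts in IRF3-2D and 13940893 to 14830629 in Ctrl. Irf3 itself, which carries the allele, stood at 118, 106 and 137 CPM in IRF3-2D, against 42.6, 46.4 and 60.3 CPM in Ctrl. CPM is a gene's counts over the library total, times 1e6, and here is scaled by TMM, a factor for the make-up of each library, which was 1.12 to 1.23 in IRF3-2D and 0.822 to 0.879 in Ctrl. The log2 fold change of Irf3 was 1.27 (SE 0.16, edgeR adjusted p = 0.00152). Summed hepatocyte markers were at 77580 to 90374 CPM in IRF3-2D and 140152 to 191757 CPM in Ctrl, and Kupffer cell markers at 485 to 694 CPM in IRF3-2D and 411 to 457 CPM in Ctrl. Most of the hepatocyte sum was Alb, which averaged 50833 CPM in IRF3-2D and 118676 CPM in Ctrl. Of 10 tested hepatocyte markers 1 was called higher and 7 lower. Of 10 tested Kupffer cell markers 3 were called higher and 0 lower. Markers of sinusoidal endothelial cells summed to 252 to 337 CPM in IRF3-2D and 357 to 389 CPM in Ctrl. Of 8 tested, 0 were called higher and 4 lower. Summed markers of stellate cells, of cholangiocytes, and of lymphocytes, neutrophils and erythroid cells overlapped between the groups. Of 8 tested stellate cell markers 0 were called higher and 1 lower. Of 6 tested in each of the other lists, 0 were called. Over all genes tested 13.2% were called higher and 13.1% lower. The part of these cell types in the results was not tested. Fewer cells of a type and less RNA per cell cannot be told apart in whole liver.

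The 22 Mup rows together were lower in every IRF3-2D library than in any Ctrl library. They summed to 34379.9, 22683 and 37543 CPM in IRF3-2D, against 46361, 146678 and 92605 CPM in Ctrl. The means were 31536 ± 7828 CPM in IRF3-2D and 95215 ± 50209.5 CPM in Ctrl (SD, n = 3 each), and the log2 fold change was -1.60 (SE 0.40). Ctrl libraries spread 3.16-fold and IRF3-2D libraries 1.66-fold. Before TMM scaling the Mup rows took 4.0%, 2.78% and 4.21% of the counts in IRF3-2D, against 4.07%, 12.05% and 7.99% in Ctrl, with 95% Wilson intervals within 0.0168 percentage points. On that scale Ctrl replicate 1 lay among the IRF3-2D libraries, so the groups overlapped. Leaving out Ctrl replicate 2 moved the log2 fold change of the sum to -1.14, and leaving out Ctrl replicate 1 moved it to -1.93.

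**Figure D1:**
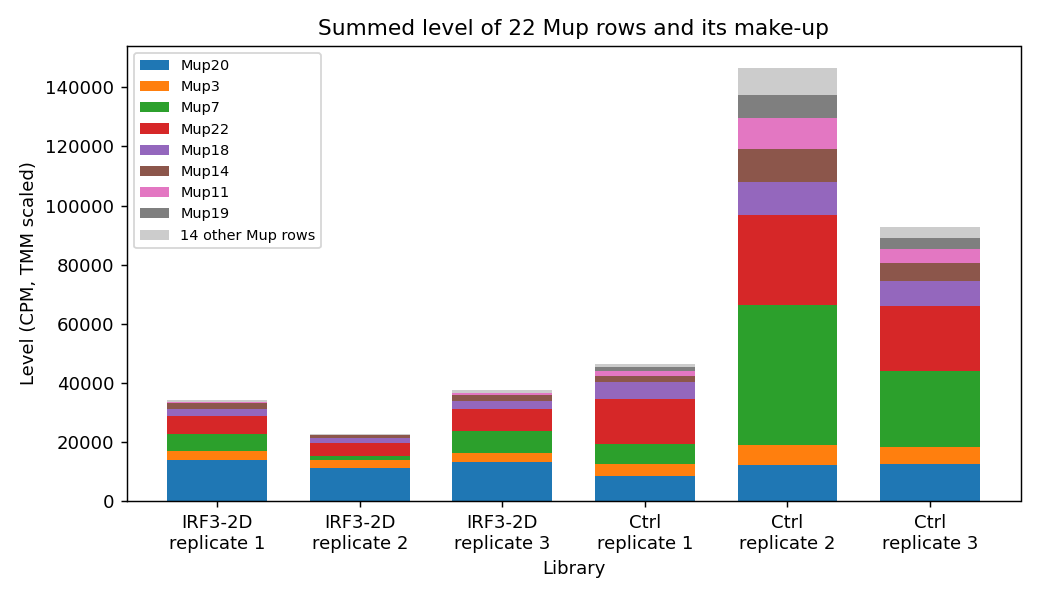
Stacked bars give the level of the 22 Mup rows in each library, in CPM after TMM scaling, with 8 genes in colour and the rest in light grey. Mup20 at the foot of each bar is of like height in all 6 libraries, while the bars above it are taller in Ctrl, most of all in Ctrl replicate 2, which reaches 146678 CPM.

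The 7 genes did not move alike. Mup19, Mup17, Mup15 and Mup12 of the central block were lower in every IRF3-2D library than in any Ctrl library, Mup3 was lower by less, and Mup21 and Mup20 overlapped between the groups. By the threshold used for all genes, an adjusted p under 0.05, 5 of the 7 were called lower and 0 higher. Over the 10802 genes tested 26.3% were called, 13.1% lower and 13.2% higher. After TMM scaling the groups did not overlap, with IRF3-2D below, for 5 of the 7, against 21.2% of all genes tested. For a further 23.7% of all genes tested IRF3-2D was above, which makes 44.9% without overlap. Since the genes were chosen on this contrast, these counts describe the choice. Mup3 and Mup12 lost their call without IRF3-2D replicate 1 or 2 or without Ctrl replicate 2 or 3, and Mup15 lost it without IRF3-2D replicate 2 or 3. Mup15 and Mup17 also lost it with limma-voom, and Mup3, Mup12 and Mup15 with a block for replicate number. Only Mup19 kept its call under all 12 alternatives. Mup21 was called lower without IRF3-2D replicate 3, at a log2 fold change of -1.37.

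Mup19 had 6.92, 2.03 and 8.06 CPM in IRF3-2D, against 1363, 7885 and 3939 CPM in Ctrl. No other listed gene differed as much: its mean was 5.67 ± 3.20 CPM in IRF3-2D and 4396 ± 3285 CPM in Ctrl (SD, n = 3 each), and the log2 fold change was -9.59 (SE 0.94). Without Ctrl replicate 2 it was -8.86. By mean level Mup19 ranked 7545 among the 10802 genes tested in IRF3-2D and 40 in Ctrl. All of its 31-base words, the length of sequence by which reads are commonly matched to transcripts, also occur in another gene, so its counts rest on how shared reads were divided. Per 100 counts of Mup18, a neighbour in the block, Mup19 had 0.301, 0.118 and 0.294 counts in IRF3-2D, against 23.4, 70.2 and 46.5 in Ctrl.

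Mup17 had 2.78, 1.02 and 1.64 CPM in IRF3-2D, against 37.3, 1469 and 229.6 CPM in Ctrl. The groups were far apart, but the Ctrl libraries themselves spread 39.3-fold. Its log2 fold change was -8.31 (SE 1.52), and -6.19 without Ctrl replicate 2. Of its words, 86.2% occur in another gene and 124 are its own.

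Mup15 had 24.3, 1.29 and 6.95 CPM in IRF3-2D, against 79.0, 2648 and 671 CPM in Ctrl. The groups did not overlap, with a 33.5-fold spread in Ctrl and an 18.8-fold spread in IRF3-2D. Its log2 fold change was -6.70 (SE 1.55), -5.11 without Ctrl replicate 2 and -8.09 without IRF3-2D replicate 1, and like Mup19 it has no word of its own. Mup12 had 27.2, 9.08 and 53.0 CPM in IRF3-2D, against 78.5, 701 and 326 CPM in Ctrl. The highest IRF3-2D library was below the lowest Ctrl library here too, and the log2 fold change was -3.63 (SE 0.90), -2.77 without Ctrl replicate 2 and -4.35 without IRF3-2D replicate 3. It has 71 words of its own.

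Mup3, outside the block, had 3325, 2679 and 3299 CPM in IRF3-2D, against 3975, 6793 and 5910.1 CPM in Ctrl. All IRF3-2D libraries were lower on this scale, by a log2 fold change of -0.84 (SE 0.20), and its 766 words of its own are the most of the 7. Before TMM scaling the groups overlapped. Mup3 then had 51409 of 13288695 counts in IRF3-2D replicate 1 and 48663 of 13940893 counts in Ctrl replicate 1. Mup21 had 134, 72.4 and 216 CPM in IRF3-2D, against 212, 319 and 263 CPM in Ctrl. IRF3-2D replicate 3 lay above Ctrl replicate 1, so the groups overlapped, with a log2 fold change of -0.91 (SE 0.37) that was not called.

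Mup20, the gene of darcin, had 13783, 11162 and 13168 CPM in IRF3-2D, against 8675, 12274 and 12458 CPM in Ctrl. The groups overlapped: the means were 12704 ± 1370.5 CPM in IRF3-2D and 11136 ± 2133 CPM in Ctrl (SD, n = 3 each), and the log2 fold change was 0.19 (SE 0.16). Scaling by library totals alone moves the median log2 fold change of all genes tested to 0.49, against 0.03 with TMM. Mup20 stood at 0.64 on that scale and was called higher, while Mup3 stood at -0.38 and was no longer called. Of its words 64.5% occur in another gene, mostly Mup pseudogenes, 27.8% occur in another Mup gene, and 319 are its own.

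**Figure D2:**
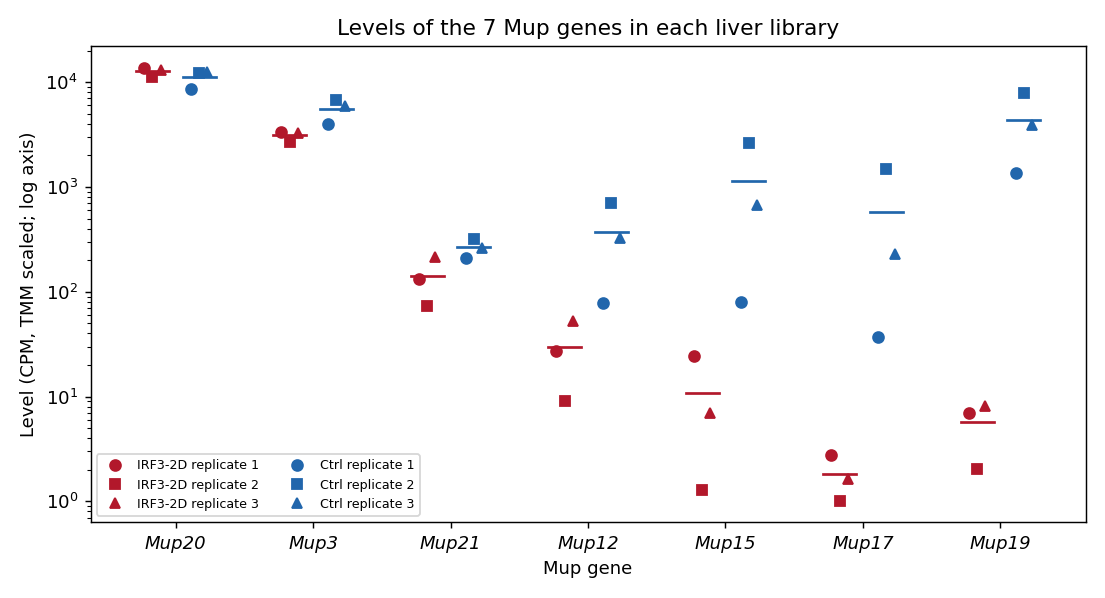
Points give the CPM of each of the 7 genes in each library on a log axis, IRF3-2D in red left of Ctrl in blue, with lines at the group means. From Mup12 to Mup19 the red points sit below all blue points, with Mup19 at 2.03 to 8.06 CPM in IRF3-2D and 1363 to 7885 CPM in Ctrl, while those of Mup20 and Mup21 mix.

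The make-up of the family differed between the groups as well. Mup20 held 41.5% ± 7.17 of the summed Mup counts in IRF3-2D and 13.5% ± 5.17 in Ctrl (SD, n = 3 each), without overlap. Mup3 held 10.1% ± 1.55 in IRF3-2D and 6.53% ± 1.98 in Ctrl, also without overlap, and Mup21 held 0.428% ± 0.132 in IRF3-2D and 0.320% ± 0.124 in Ctrl, with overlap. Mup19 held 0.0169% ± 0.00687 in IRF3-2D and 4.19% ± 1.22 in Ctrl. Mup12, Mup15 and Mup17 held 0.0868%, 0.0316% and 0.00564% in IRF3-2D, against 0.333%, 0.9002% and 0.443% in Ctrl. These shares compare counts within a library and do not depend on its scaling, but a share can move because the rest of the family does. As shares of the 7 genes alone, the order of the groups was reversed for Mup3 and Mup21. Mup3 then held 19.4% in IRF3-2D and 24.5% in Ctrl, and Mup21 0.860% in IRF3-2D and 1.19% in Ctrl. Mup20 stayed higher, at 79.5% in IRF3-2D and 50.3% in Ctrl, and Mup12, Mup15, Mup17 and Mup19 stayed lower. For a level that can be set beside other genes, CPM was divided by transcript length: Mup20 had 13690.2 ± 1477 CPM per kilobase in IRF3-2D and 11999.6 ± 2298 in Ctrl. By that level it was the highest Mup gene in IRF3-2D and ranked 3 in Ctrl, after Mup22 and Mup7. In Ctrl, the levels of Mup20 and of Mup7 did not differ beyond their spread, with Mup7 at 25645 ± 19645 CPM per kilobase. Mup3 ranked 4 in IRF3-2D and 8 in Ctrl, and Mup19 ranked 15 in IRF3-2D and 6 in Ctrl.

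Of the 15 Mup rows outside the list, 13 could be tested and 8 were called lower, beside 13.1% of all genes tested. Mup4 and Mup6 had too few counts. The median log2 fold change was -3.63 over the 7 genes and -2.20 over the 13 others, beside 0.03 over all genes tested. Since the rows share reads, they are not separate measurements. The 16 genes of the central block summed to 15589 ± 6192 CPM in IRF3-2D and 78253 ± 47043 CPM in Ctrl (SD, n = 3 each), a ratio of means of 5.02. Their log2 fold changes ran from -9.59 for Mup19 to -1.10 for Mup16, and 11 were called lower. The libraries ran alike across the family: IRF3-2D replicate 2 was the lowest of its group in 19 of 22 rows, and Ctrl replicate 2 the highest of its group in 21. Counts of Mup20 over those of the block were 0.804, 1.27 and 0.631 in IRF3-2D, against 0.259, 0.0964 and 0.168 in Ctrl.

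**Figure D3:**
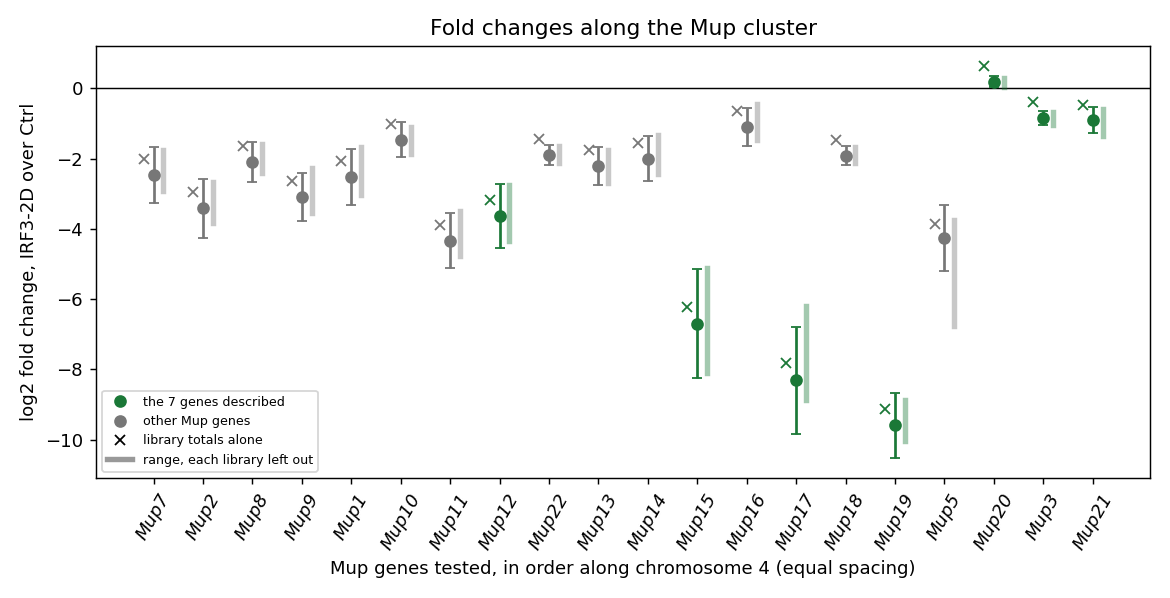
Points give the log2 fold change, IRF3-2D over Ctrl, of the 20 Mup genes tested in their order along chromosome 4, with standard errors, crosses for scaling by library totals alone and thick bars for the range with each library left out. Genes from Mup7 to Mup19 run from -9.59 to -1.10, and Mup20, beyond the block, is at 0.19, the only 1 of the 20 above 0.

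How far counts can be credited to a single Mup gene was read from the transcripts, independently of the counts. In the central block 70.2% to 100% of the 31-base words of a gene occur elsewhere, and each gene has between 0 and 472 of its own. With 75-base words the shares were 100% for Mup19 and Mup15, 80.3% for Mup12, 68.7% for Mup17, 43.6% for Mup20, 10.3% for Mup21 and 5.44% for Mup3. Values of Mup3, Mup20 and Mup21 thus rest on more sequence of their own than those of Mup15 and Mup19. For the central block the sum is the measure that does not depend on how reads were divided within it.

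**Figure D4:**
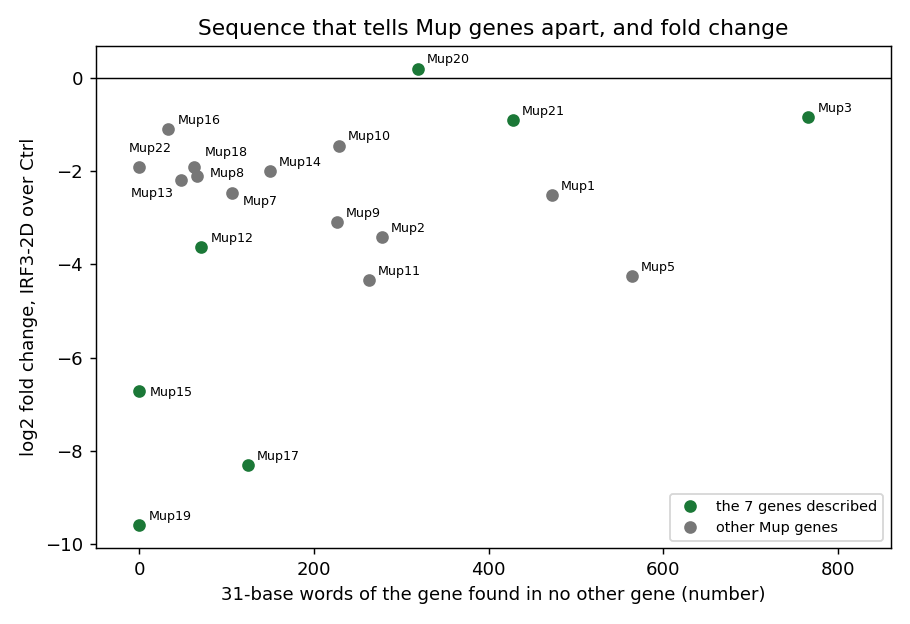
Each point is a Mup gene, with the number of its 31-base words found in no other gene on the horizontal axis and its log2 fold change, IRF3-2D over Ctrl, on the vertical axis. Mup19 and Mup15, at -9.59 and -6.70, have 0 words of their own, and Mup3, at -0.84, has 766; Mup22, at -1.91, also has 0, and Mup5, at -4.26, has 564.

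Genes of the growth hormone pathway, on which Mup transcription is known to depend, were in part lower and in part not called. Of 17 tested genes of the growth hormone and STAT5 list, 6 were called lower and 0 higher by edgeR, with a median log2 fold change of -0.69. Over all genes tested 13.1% were called lower and the median was 0.03. At an unadjusted p under 0.05 the count higher was also 0, as it was by DESeq2 and by limma-voom. Ghr, the growth hormone receptor, had 58.9, 54.5 and 59.7 CPM in IRF3-2D, against 132, 174 and 166 CPM in Ctrl (log2 fold change -1.45, SE 0.12, edgeR adjusted p = 0.000303). Stat5b, which carries the signal to the nucleus, had 96.9, 104 and 107 CPM in IRF3-2D, against 185, 234 and 208 CPM in Ctrl (log2 fold change -1.02, SE 0.11, edgeR adjusted p = 0.000805). The groups were apart in both. Jak2, the kinase bound to the receptor, was at a log2 fold change of 0.24 (SE 0.15), and Stat5a, the close relative of Stat5b, at -0.69 (SE 1.11); the groups overlapped and neither was called.

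Among the products, Igf1, the circulating growth factor made under growth hormone, averaged 69.3 ± 8.04 CPM in IRF3-2D and 177 ± 17.1 CPM in Ctrl (SD, n = 3 each; log2 fold change -1.35, edgeR adjusted p = 0.000413). Igfals, which keeps IGF1 in the blood, averaged 28.2 ± 8.66 CPM in IRF3-2D and 70.1 ± 16.2 CPM in Ctrl (log2 fold change -1.31, edgeR adjusted p = 0.0105). The binding proteins Igfbp1 and Igfbp3 were called lower as well, at log2 fold changes of -0.62 and -1.44. Igfbp1 lost the call without IRF3-2D replicate 1 or 3 or Ctrl replicate 2, and Igfbp3 lost it whichever library was left out. With library totals alone neither was called, at -0.16 for Igfbp1 and -0.99 for Igfbp3. Socs2, a feedback inhibitor that STAT5 induces, was at 0.807 CPM in IRF3-2D and 1.75 CPM in Ctrl, and was not called. Cish, another STAT5 target and inhibitor, was at 2.14 CPM in IRF3-2D and 3.22 CPM in Ctrl, with overlap, and was not called. Bcl6, a repressor of STAT5 targets, spread from 9.31 to 55.2 CPM in IRF3-2D and from 50.05 to 52.9 CPM in Ctrl, and was not called. Cux2, a female-biased factor of mouse liver, had too few counts to test, and Onecut1 and Zhx2, a repressor of several liver genes, were not analysed here.

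Hormone receptors and liver regulators moved in both directions: of 25 tested, 5 were called higher and 8 lower, with a median log2 fold change of -0.36. Among all genes tested, 13.2% were called higher and 13.1% lower, and the median was 0.03. Prlr, the prolactin receptor, averaged 8.59 CPM in IRF3-2D and 118 CPM in Ctrl (log2 fold change -3.78, edgeR adjusted p = 8.74e-05). Dio1, which makes active thyroid hormone, averaged 43.2 CPM in IRF3-2D and 159 CPM in Ctrl (log2 fold change -1.88, edgeR adjusted p = 0.0065). Prlr, Dio1 and Nfib, a nuclear factor I protein at a log2 fold change of -0.79, were called under all 12 alternatives. So were Ppargc1a and Ezh1, both of which were called higher.

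Other members of that list were called higher, called lower or not called. Nr3c1, the glucocorticoid receptor, averaged 119 ± 9.03 CPM in IRF3-2D and 121 ± 6.15 CPM in Ctrl (SD, n = 3 each; log2 fold change -0.02, SE 0.09), and Thrb, a thyroid hormone receptor, was not called at -0.59. Ppargc1a, a coactivator of the fasting response, averaged 95.8 CPM in IRF3-2D and 43.2 CPM in Ctrl (log2 fold change 1.15, edgeR adjusted p = 0.00105). Ezh1, a histone methyltransferase, was called higher at 0.60. Cebpa, a liver factor, was called higher at 1.05 but not without IRF3-2D replicate 1 (edgeR adjusted p = 0.0518). Hnf4a, which sets hepatocyte identity, was called lower at -0.40 (edgeR adjusted p = 0.0472) and stood at 0.05, not called, with library totals alone. Adra1b and Creb3l3, called lower at -0.46 and -0.68, were not called on that scale either, and Adra1b was not called without IRF3-2D replicate 1 or 2.

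**Figure D5:**
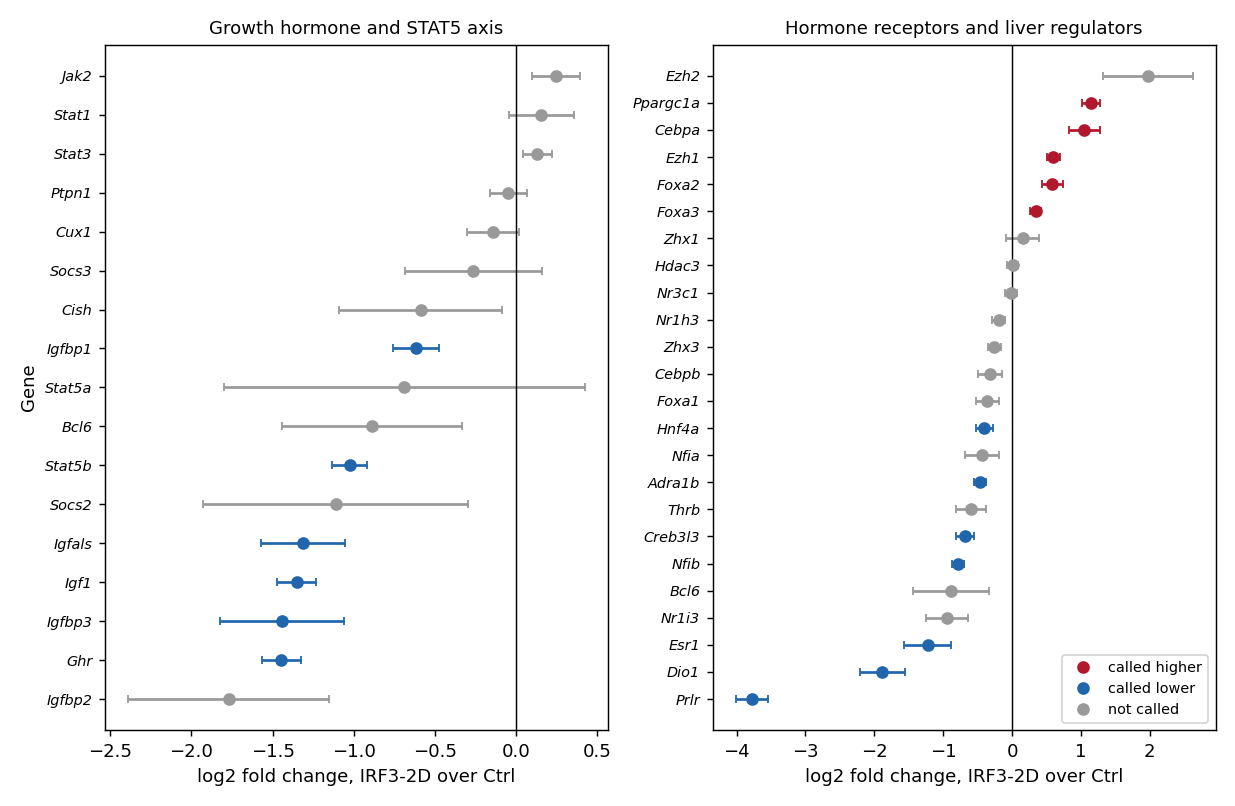
Points give the log2 fold change with its standard error, IRF3-2D over Ctrl, for genes of the growth hormone and STAT5 list on the left and of the list of hormone receptors and liver regulators on the right; colour marks the call. On the left, Ghr at -1.45, Igf1 at -1.35 and Stat5b at -1.02 are among the points called lower, while the lowest point, at -1.77, was not called. Prlr at -3.78 and Dio1 at -1.88 lie at the lower end on the right.

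Mup genes are among the male-biased genes of mouse liver, so other genes of known sex bias were set beside them. Of 28 tested male-biased genes, 1 was called higher, 11 lower and 16 not called, with a median log2 fold change of -0.54. These calls made 3.57% higher and 39.3% lower. Over all genes tested 13.2% were called higher and 13.1% lower, and the median was 0.03. Elovl3, a fatty acid elongase, averaged 31.3 ± 13.7 CPM in IRF3-2D and 217 ± 62.7 CPM in Ctrl (SD, n = 3 each; log2 fold change -2.79, edgeR adjusted p = 0.00158). Lifr, a cytokine receptor, was at -2.76, and Serpina1e, an alpha-1 antitrypsin, was at -4.08. Susd4, C8a, Egfr, Ces4a and Nudt7 were called lower too, between -4.09 and -0.91. The gene called higher, named after its value was seen, was Cyp4a12b, a fatty acid hydroxylase, at 1.13.

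Female-biased genes were also called lower more often than higher. Of 34 with a row only 17 passed the filter on low counts, of which 5 were called higher and 10 lower, with a median of -1.84. Both shares, 29.4% higher and 58.8% lower, were above those over all genes tested, 13.2% and 13.1%. Some of these genes passed the filter only through the group where they were high. Cyp2c69 averaged 0.195 CPM in IRF3-2D and 7.92 CPM in Ctrl, and Sult1e1 4.71 CPM in IRF3-2D and 0.373 CPM in Ctrl. Both shares thus partly reflect the filter, and nothing is concluded from their size. Cyp2c40, a cytochrome P450, averaged 0.593 ± 0.127 CPM in IRF3-2D and 37.0 ± 4.15 CPM in Ctrl (SD, n = 3 each; log2 fold change -5.94, edgeR adjusted p = 9.09e-06). Cyp2c69, Acaa1b, Hamp2, Tox, Atp6v0d2 and Abcd2 were called lower as well, between -5.27 and -2.81. Rtn4, a membrane-shaping protein of the endoplasmic reticulum, averaged 401 ± 3.73 CPM in IRF3-2D and 116 ± 10.4 CPM in Ctrl (log2 fold change 1.78, edgeR adjusted p = 4.96e-05). The other genes called higher, named after their values were seen, were Trim24, Sult1e1, Fmo1 and Cyp2a4, at 1.51, 3.62, 0.87 and 5.31. Without IRF3-2D replicate 1 or 2 or Ctrl replicate 3, neither Fmo1 nor Cyp2a4 was called, and Fmo1 was not called without Ctrl replicate 2 either. Cyp2c, Cyp2a, Cyp4a and Serpina1 genes have near copies of their own, so their single values are uncertain.

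Other secreted liver products gave calls in both directions or none. The 7 tested lipocalins outside the family had 0 calls in either direction by edgeR, by DESeq2, by limma-voom and at an unadjusted p under 0.05, with a median log2 fold change of -0.07. Over all genes tested edgeR called 26.3%, and a list of 7 is too small for 0 calls to set it apart. With library totals alone 2 of them were called higher, and 2 were called lower without Ctrl replicate 1. Of 31 abundant secreted proteins 6 were called higher and 13 lower, with a median of -0.30. This made 19.4% higher and 41.9% lower, beside 13.2% and 13.1% of all genes tested. Alb, the main protein of plasma, averaged 50833 ± 4016 CPM in IRF3-2D and 118676 ± 22921 CPM in Ctrl (SD, n = 3 each; log2 fold change -1.22, edgeR adjusted p = 0.00138). Trf, which carries iron, and Itih4 were both at -1.73, and Apob, Serpina1a and Serpina1c between -1.19 and -0.89. Hp, which binds haemoglobin, was called higher at 1.01, and Ttr, a carrier of thyroid hormone and retinol-binding protein, at 0.84.

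Genes next to the cluster were examined as well. Of 17 tested protein-coding genes outside the family that start within 1000000 bases of it, 1 was called higher and 2 lower, 17.6% in all beside 26.3% of all genes tested, with a median of -0.14. These were Slc31a2 at 0.56, Alad, an enzyme of haem synthesis, at -0.55, and Rgs3, a regulator of G protein signalling, at -2.17, and each lost its call under at least 1 alternative: Slc31a2 when any library other than Ctrl replicate 1 was left out, Rgs3 without IRF3-2D replicate 2 or Ctrl replicate 1, and Alad with library totals alone. Outside the family, the genes whose log2 CPM ran most like the summed Mup level over the 6 libraries, among 3605 abundant genes, were Dhdds (Pearson r 0.996), Zfand6 (0.989), Cgnl1 (0.987), Cyp4v3 (0.986) and Gpx1 (0.985). After each group's mean had been subtracted they were Taldo1 (0.998), Dhdds (0.993), Lims2 (0.993), Tnrc6c (0.991) and Dgat2 (0.990). These values share the 6 libraries and their scaling, and describe likeness only.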

How the data were processed

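The deposited table holds 1 estimated count for every gene in every library. The submitters' processing notes name Salmon 1.2.1 and, as builds, GRCm38 and mm10; the annotation, strand setting and filters behind the table are unstated there and in the labels. Per the labels' protocols, libraries were strand-specific and made from poly-A RNA. All deposited values were whole numbers and were used as they stand. Of 20894 identifiers, 20860 were matched to GENCODE M21, and 34 were kept under their identifier.

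The comparison of IRF3-2D with Ctrl used edgeR 4.0.16 (R 4.3.3): filterByExpr at its defaults, TMM scaling, the quasi-likelihood F-test with the group as the only term, and Benjamini-Hochberg adjustment over 10802 genes, with a threshold of 0.05. For the sum, all Mup rows were added before filtering. For a gene with no count, the limit of 3 counts corresponds to 0.194 to 0.203 TMM-scaled CPM in IRF3-2D libraries and 0.234 to 0.252 in Ctrl libraries. Intervals and floors cover counting error only. Replicate numbers were not treated as pairs (correlations of same-numbered deviations 0.096, -0.0339 and 0.0449). The procedure was tested on simulated data, with the same dispersion for every gene and no shared reads. That test cannot speak for the Mup rows, which share reads and spread widely within a group.

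The 7 genes and the gene lists were chosen with earlier results of these data known. Genes named from a list were its 8 called members with the smallest adjusted p at most, plus a fixed set of regulators given whatever their result; Jak2, Stat5a and Cish were added after their values were seen; named neighbours were those called, and genes of like pattern were the 5 with the highest r at a mean log2 CPM of at least 5. Sequence words and coding identity were computed from GENCODE M21 transcripts, counting identity over aligned bases (Biopython 1.88). A planned comparison of proteins was not used here, and the values of 1 listed regulator are not reported here. Alternatives were RLE size factors, library totals alone, DESeq2 1.42.0, limma-voom (limma 3.58.1), no filter, a replicate block and each library left out. Family shares were also taken within the 7 genes alone.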

Additional observations from a re-analysis of the deposited data

How the results depend on the processing

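The summed Mup level stayed below 0 under all 12 alternatives: its log2 fold change was -1.60, and -1.62 with RLE size factors, -1.13 with library totals alone, -1.48 with limma-voom, -1.59 with no filter, and -1.93 to -1.14 with each library left out. The replicate block gave -1.47 for the sum and left 2 of the 7 genes called lower and 0 neighbours called higher; the same-numbered libraries share only a number. With limma-voom 3 of the 7 were called lower and 2 male-biased genes higher, as were 2 by DESeq2. With library totals alone, 4500 genes were called higher and 571 lower over the whole table, and 1 of the 7 (Mup20) was higher; the counts higher became 4 for the growth hormone list, 9 for the regulators, 6 for male-biased genes, 2 for lipocalins and 4 for neighbours, and the counts lower 4 for the regulators, 6 for secreted proteins and 1 for neighbours. The cause was not tested. With each library left out in turn, 851 to 1312 genes were called higher and 920 to 1363 lower, 2 to 5 of the 7 genes lower, and 0 to 1 gene of the growth hormone list higher. The regulators gave 2 to 5 higher and 5 to 10 lower, male-biased genes 1 to 3 higher, female-biased genes 3 to 5 higher, lipocalins 0 to 2 lower, secreted proteins 2 to 6 higher, and neighbours 0 to 1 higher and 1 to 3 lower. With 3 libraries a group, shared reads and a 39.3-fold spread of Mup17 in Ctrl, single values of central genes are imprecise.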
